A study of Mus musculus with 12 samples.

Results

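miR-132 and miR-212 are a pair of neighbouring miRNAs whose transcription follows neuronal activity. Their assays were chosen by name, as every assay in the deposited table for miR-132 or miR-212 itself, either arm, and 2 of its 619 miRNA assays met this rule, hsa-miR-132 and mmu-miR-212. Hippocampal miRNAs were measured by TaqMan OpenArray, a high-density qPCR plate, in 12 samples that form 4 groups of 3, and each sample was a pool of the ipsilateral hippocampi of 2 mice, with 1 µg RNA per sample. The wt control group consisted of wild-type C57BL/6 mice given vehicle into the amygdala, and the wt post-SE group of wild-type C57BL/6 mice given kainic acid (KA), a glutamate receptor agonist that triggers status epilepticus (SE). The *P2rx7*-/- control and *P2rx7*-/- post-SE groups consisted of C57BL/6 mice with a constitutive deletion in the gene of the ATP-gated P2X7 receptor, exon 2 being absent in every cell, given vehicle and KA respectively. All mice were male, all received the anticonvulsant lorazepam, and all hippocampi were taken 8 h after the injection. The labels give an age of 8 weeks, where the methods of the study give a range that starts there. The array measures no messenger RNA, so these values do not check the genotype.

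A miRNA is loaded as a single strand into an Argonaute protein and guides it to messenger RNAs that pair with its seed, the bases near its 5′ end, which lowers their translation and stability. The miR-132 and miR-212 locus is a known target of the transcription factor CREB, which is activated by synaptic calcium entry and by neurotrophins. In hippocampal neurons miR-132 is known for its part in the growth of dendrites and spines.

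The mature strands are shown because those taken as targets of the 2 assays share a seed. The assay names give no arm, and the 3p strands are assumed to be the targets, since the files do not hold the sequences that the assays detect. The 3p strands are given here from RefSeq (GRCm38.p6) in 5′ to 3′ direction with the seed, bases 2 to 8, in capitals.
mmu-miR-132-3p: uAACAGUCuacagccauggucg
mmu-miR-212-3p: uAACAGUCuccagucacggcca
The strands share the seed and their first 9 bases, and 17 of their 22 bases are identical. Counted from 1 at the 5′ end, with the base of miR-132 first, they differ by A10C, C14U, U17C, U20C and G22A. Of 1679 mature mouse miRNA names in the table, these 2 were the only ones with this seed. miR-212-3p lies at chr11:75173443-75173464 and miR-132-3p at chr11:75173723-75173744, both on the plus strand. The hairpins Mir212 and Mir132 are annotated as miRNA genes 203 bases apart, between the protein-coding genes Hic1 and Ovca2.

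OpenArray reads each assay as the threshold cycle (Ct), and a Ct that is lower by 1 cycle stands for about 2 times as much miRNA. The Ct values, deposited without normalization, are listed only from 10.1 to 28 and are otherwise empty. miR-212 had a Ct in all 12 samples and was 1 of 335 assays with a Ct below 28 in every sample. miR-132 had a Ct in 9 of 12 samples, and it was empty in wt control 1, *P2rx7*-/- control 1 and *P2rx7*-/- post-SE 1. Both assays were among those with the most signal. By median Ct, miR-132 (10.6) ranked 3 and miR-212 (11.9) ranked 17 among 480 assays with a Ct in at least 9 samples, although Ct values of different assays also depend on each assay's efficiency.

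The listed Ct values of miR-132, 10.2 to 10.8, lie near the lower end of what the table holds. Among the 7 assays with a mean Ct between 10 and 11, 37 of 84 values (44.0%) were empty. Among the 35 assays with a mean Ct between 12 and 14, where miR-212 lies, 7.14% of values were empty, and with a mean Ct between 26 and 28 it was 42.5%. Empty values were thus frequent at both ends of the Ct range, and whether an empty miR-132 value stands for a Ct below the listed range was not tested.

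**Figure D1:**
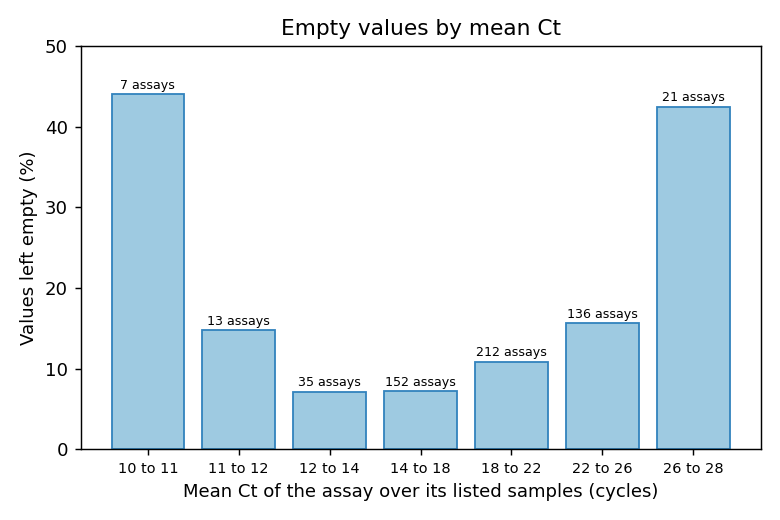
Percent of values left empty (y axis) for assays grouped by their mean Ct over the samples that list one (x axis, cycles); the number above each bar is the number of assays. The bar for a mean Ct of 10 to 11, which includes miR-132, stands at 44.0% and the bar for 12 to 14 at 7.14%.

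One sample stood apart. Over the 335 assays, wt control 1 had Spearman correlations of 0.660 to 0.737 with the other samples, whose own median correlations ran from 0.893 to 0.962. The points of these correlations are assays, not replicates. The main comparisons with wt controls are therefore also given without it.

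In the Ct values as deposited, miR-212 read 12.3, 12.1 and 11.8 in wt controls, and 11.7, 11.8 and 11.4 in wt mice after SE. In *P2rx7*-/- mice it read 12.9, 12.8 and 12.1 in controls, and 11.8, 12.4 and 11.4 after SE. Before any normalization the post-SE samples thus tended to the lower Ct, that is to more miR-212, but the ranges of control and post-SE samples overlapped in both genotypes.

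Each sample was then set against its own mean Ct over the 335 assays, and the negative of that difference (−ΔCt) is a level on a log2 scale, higher for more miRNA. In wt mice the level of miR-212 was 6.78, 6.50 and 6.48 for controls, against 7.58, 7.09 and 7.17 after SE. The lowest wt post-SE sample lay above the highest wt control sample. For *P2rx7*-/- mice the level was 6.28, 6.10 and 7.01 in controls, against 6.70, 6.68 and 7.71 after SE. Here the groups overlapped, because *P2rx7*-/- control 3 lay above the lower 2 of the *P2rx7*-/- post-SE samples, while *P2rx7*-/- post-SE 3 was the highest of all 12 samples. Ordered by group mean, the levels ran from 6.46 ± 0.48 (SD, n = 3) in *P2rx7*-/- control over 6.58 ± 0.17 in wt control and 7.03 ± 0.59 in *P2rx7*-/- post-SE to 7.28 ± 0.26 in wt post-SE samples. Neither the 2 control groups nor the 2 post-SE groups differed from each other by more than their spread.

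miR-132 had a level of 8.15 and 8.09 in wt control 2 and 3 and of 8.60, 8.64 and 8.42 in wt mice after SE. These wt groups did not overlap. Its level in *P2rx7*-/- mice was 8.09 and 8.35 in control samples 2 and 3 and 8.44 and 8.32 in post-SE samples 2 and 3, so that these groups overlapped. The group means ran from 8.12 ± 0.05 (SD, n = 2) in wt control over 8.22 ± 0.18 (n = 2) in *P2rx7*-/- control and 8.38 ± 0.09 (n = 2) in *P2rx7*-/- post-SE to 8.55 ± 0.11 (n = 3) in wt post-SE samples. The neighbouring *P2rx7*-/- groups in this order differed by less than the spread of the control samples.

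**Figure D2:**
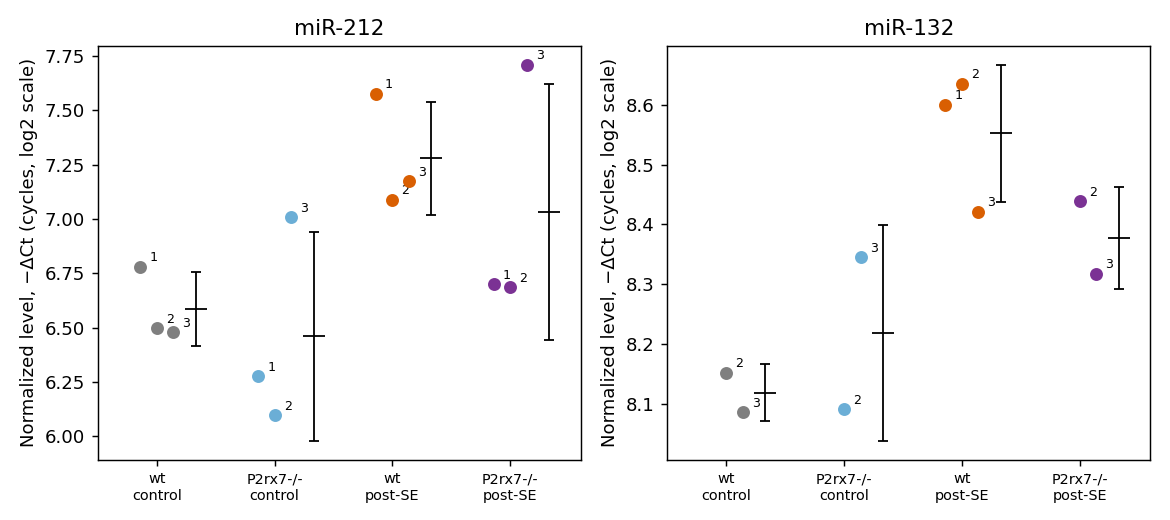
Normalized level (−ΔCt, cycles, log2 scale, y axis) of miR-212 (left) and miR-132 (right) in the 4 groups (x axis); points are samples with their replicate number, and the bars beside them give mean and SD. The wt post-SE samples of miR-212, at 7.09 to 7.58, lie above the wt control samples, at 6.48 to 6.78, while the *P2rx7*-/- groups overlap; with a small nucleolar RNA (snoRNA) as normalizer the wt groups overlap for both miRNAs, for miR-212 with snoRNA135 only through wt control 1. The y axes do not start at 0 and differ between the panels.

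In wt mice, miR-212 passed the fold change (FC) limit of the study after SE when set against the mean Ct, but not with every normalizer. Relative to the average of the wt control samples, its FCs in the wt post-SE samples averaged 1.64 ± 0.308 (SD, n = 3), from 1.42 to 1.99, where the wt control samples themselves lay between 0.929 and 1.14. An average FC above 1.5 counts as up-regulated and one below 0.6 as down-regulated, a rule that does not weigh the spread between samples. In this comparison 78 of 335 assays (23.3%) passed the upper limit. Counts past the limits were recomputed here from the Ct values. This one and those between genotypes below are higher than the numbers the study reports. For miR-212, leaving out wt post-SE 1 gave an average of 1.46, under the limit, and leaving out wt control 1 gave 1.71. The average was also under the limit with the snoRNAs described below as normalizers, at 0.988 (snoRNA202) and 1.32 (snoRNA135). Leaving out wt control 1 made these 1.26 and 1.55, so that with snoRNA135 the call depends on that sample. The fold changes that the authors deposited, ratios to wt control 1, averaged 1.504 in wt post-SE samples, and 1.49 once set against the average of the wt control samples, so they lie at the limit. Groups that did not overlap, with post-SE higher, were found for 20 of 335 assays (5.97%), and for 36 (10.7%) without wt control 1. The log2 difference was 0.69 ± 0.37 (SE), with an adjusted p of 0.664 in the limma fit over all assays, and the two-sided exact permutation test gave p = 0.1, the smallest value that 3 samples against 3 allow.

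For miR-132 in wt mice, the average FC was 1.35 ± 0.105 (SD, n = 3) against the 2 wt control samples with a Ct, below the limit. Among the 478 assays with a Ct in at least 2 samples of each group, 33 (6.9%) had wt groups without overlap and a higher post-SE level. The log2 difference of 0.43 ± 0.32 (SE) had an adjusted p of 0.799 in limma, and the two-sided exact permutation test with 3 samples against 2 gave p = 0.1, again the smallest possible value. With the empty values of miR-132 set to a Ct of 10 the log2 difference was 0.12 (adjusted p = 0.989, limma). Without wt control 1, in which miR-132 was empty, the log2 difference was 0.41 with an adjusted p of 1.00 in limma.

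In *P2rx7*-/- mice, the average FC of miR-212 after SE relative to *P2rx7*-/- control samples was 1.58 ± 0.695 (SD, n = 3), with single FCs from 1.17 to 2.38 and control samples between 0.777 and 1.46. This average passed the limit, as it did for 60 of 335 assays (17.9%), through *P2rx7*-/- post-SE 3, since 1 of the 3 FCs was above 1.5. Without that sample the average was 1.18, without *P2rx7*-/- control 1 it was 1.48, without *P2rx7*-/- control 2 it was 1.39, and the geometric mean of all 3 was 1.49, all below the limit. The log2 difference was 0.57 ± 0.37 (SE) with an adjusted p of 0.998 in limma, and the two-sided exact permutation test gave p = 0.3. miR-132 had an average FC of 1.12 ± 0.0661 (SD, n = 2) and a log2 difference of 0.16 ± 0.35 (SE), smaller than its error (adjusted p = 0.998, limma). With samples left out in turn this difference ran from 0.032 to 0.30.

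The study also set *P2rx7*-/- post-SE samples against wt control samples, which changes genotype and treatment together and shares the wt control samples with the comparison in wt mice. Against that reference miR-212 averaged an FC of 1.45 ± 0.637 (SD, n = 3), below the limit that 69 of 335 assays (20.6%) passed, or 54 (16.1%) without wt control 1, and it was above the limit without wt control 1 (1.53), without *P2rx7*-/- post-SE 1 (1.63) and without *P2rx7*-/- post-SE 2 (1.68). Among the samples left out in turn, the largest move came from *P2rx7*-/- post-SE 3, without which the average was 1.08. Over all alternatives the lowest average was 0.992. The log2 difference was 0.45 ± 0.37 (SE, adjusted p = 0.735, limma). miR-132 averaged 1.20 ± 0.0708 (SD, n = 2), with a log2 difference of 0.26 ± 0.35 (SE, adjusted p = 0.868, limma).

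Over both genotypes, the effect of SE averaged over genotype was 0.63 ± 0.26 (SE) on the log2 scale for miR-212. The unadjusted p of 0.0354 in limma became 0.829 after adjustment over 335 assays, of which 0 (0%) passed the adjusted threshold of 0.05. Before adjustment 11 of 335 assays had a p below 0.05, and 5 of these, 1.49% of all assays, were higher after SE, with miR-212 among them. A two-sided exact permutation test that exchanged labels within each genotype gave p = 0.02 for miR-212, where 0.005 is the smallest value the 400 labellings allow, and 13 of 335 assays (3.88%) had such a p below 0.05 with a higher post-SE level. Adjusted over the 335 assays, the permutation p of miR-212 was 0.515. By the size of this averaged difference miR-212 ranked 39 of 335, and the median over all assays was -0.05. Without wt control 1 the difference was 0.65, without *P2rx7*-/- post-SE 3 it was 0.47, and with snoRNA202 as normalizer it was 0.32.

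For miR-132 the averaged effect of SE was 0.30 ± 0.24 (SE), with an adjusted p of 0.856 in limma over 478 assays and an unadjusted two-sided exact permutation p of 0.0333 over 9 samples, where 0.0167 is the smallest of the 60 labellings. The limma fit draws the spread of each assay towards that of all assays, whereas the permutation uses the values of this assay alone. With the 3 empty values set to a Ct of 10 the averaged difference was 0.004. With snoRNA202 as normalizer, and the empty samples left out, it was 0.013. The size of the difference thus depends on leaving out the empty samples and on the normalizer.

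**Figure D3:**
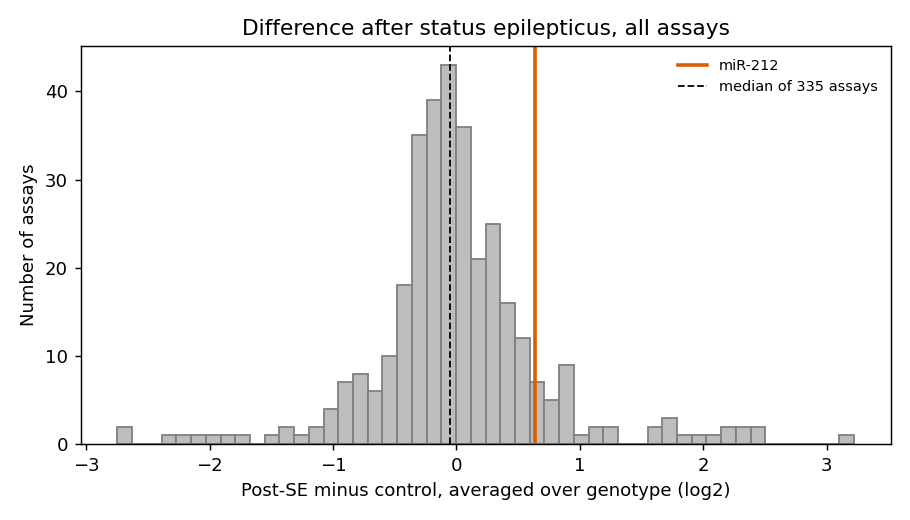
Number of assays (y axis) by log2 difference between post-SE and control samples averaged over genotype (x axis) for the 335 assays detected in all samples; the solid line marks miR-212 and the dashed line the median of all assays. miR-212, at 0.63, lies on the right shoulder of the distribution, whose median is -0.05, with 38 assays further to the right.

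The loss of P2X7 itself was compared in both conditions. In vehicle-injected mice the average FC of miR-212 in *P2rx7*-/- relative to wt samples was 0.953 ± 0.338 (SD, n = 3) and that of miR-132 was 1.08 ± 0.134 (SD, n = 2), both between the limits, which 123 of 335 assays (36.7%) passed in one direction or the other, or 86 (25.7%) without wt control 1. After SE the average FC of *P2rx7*-/- relative to wt samples was 0.893 ± 0.394 (SD, n = 3) for miR-212 and 0.887 ± 0.0524 (SD, n = 2) for miR-132, again between the limits, which 72 of 335 assays (21.5%) passed. The log2 differences between genotypes were -0.12 ± 0.37 (SE) in controls and -0.25 ± 0.37 after SE for miR-212, and 0.10 ± 0.35 and -0.17 ± 0.32 for miR-132, all smaller than their standard errors. Their adjusted p in limma ran from 0.917 to 0.999. With wt control 1 left out, the difference between control groups was -0.014 for miR-212 and 0.12 for miR-132. With samples left out in turn, the difference of miR-212 after SE ran from -0.58 to -0.056, the former without *P2rx7*-/- post-SE 3 and, at an SE of 0.35, beyond its error (adjusted p = 0.997, limma). With snoRNA202 as normalizer the difference of miR-212 between control groups was -0.76 ± 0.45 (SE, adjusted p = 0.333, limma), larger than its error, and without wt control 1 it was -0.41 ± 0.43 (adjusted p = 0.819). Whether the effect of SE differed between genotypes was tested as an interaction, which was -0.12 ± 0.52 (SE, adjusted p = 0.939, limma) for miR-212 and -0.27 ± 0.47 (SE, adjusted p = 0.929, limma) for miR-132, and -0.24 for miR-212 without wt control 1. Standard errors of this size do not show that the genotypes respond alike.

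The normalizer moved the wt comparison. With snoRNA202 as reference in place of the mean, the difference of miR-212 between wt post-SE and wt control samples was -0.030 and that of miR-132 was -0.035, and with snoRNA135 they were 0.39 and 0.27. Without wt control 1 the difference of miR-212 was 0.32 with snoRNA202 and 0.63 with snoRNA135, so its value near 0 depends on the sample that stood apart. With either of these references the wt groups overlapped for both miRNAs, while with the median Ct or the mean of all listed assays they did not. For miR-212 with snoRNA135 the overlap came from wt control 1, since its level relative to snoRNA135 was 3.11, 2.38 and 2.42 in wt controls and 2.86, 3.22 and 3.00 after SE. With snoRNA202 the groups also overlapped without that sample. In *P2rx7*-/- mice the groups overlapped for miR-212 with every normalizer, whereas for miR-132 the median Ct and snoRNA202 placed the 2 post-SE samples above the 2 control samples, and the mean of all listed assays and snoRNA135 did not. With 2 samples against 2, the smallest possible two-sided exact permutation p is 0.333. The references snoRNA202 and snoRNA135 moved the median of all 335 assays in the wt comparison from -0.09 to -0.81 and -0.39, because a normalizer shifts all assays alike. The distance of miR-212 from that median, 0.78 in wt and 0.55 in *P2rx7*-/- mice, is therefore the same with each of them, and it ran from 0.61 to 0.88 and from 0.24 to 0.78 with samples left out in turn. The wells of snoRNA202 had a mean Ct of 10.1 to 11.6 per sample, near the lower end of the listed range, with a Ct in 3 of 16 wells in wt control 3, and the highest mean was that of wt control 1. In wt control 1 the SD between wells was 3.74 cycles for snoRNA202 and 3.63 for snoRNA135. In the other samples it ran from 0.0923 to 0.400 for snoRNA202. For snoRNA135 it ran from 0.197 to 1.38 there, the latter in wt post-SE 1.

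A comparison of both assays within a sample needs no normalizer. The Ct of miR-212 exceeded that of miR-132 by 1.66 and 1.61 cycles in wt control 2 and 3, and by 1.02, 1.55 and 1.25 cycles in the wt post-SE samples. The gap in *P2rx7*-/- mice was 1.99 and 1.34 cycles in control samples 2 and 3 and 1.75 and 0.608 cycles in post-SE samples 2 and 3. The gap was narrower in every wt post-SE sample than in the wt control samples, whereas the *P2rx7*-/- groups overlapped. Averaged over genotype, the gap changed by -0.42 cycles, that is towards more miR-212 relative to miR-132, and the two-sided exact permutation test within genotype gave p = 0.233 over 9 samples, with 0.0167 as the smallest possible value. This difference between the 2 miRNAs thus did not pass the test. With samples left out in turn, the change of the gap ran from -0.71 to -0.14 cycles.

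**Figure D4:**
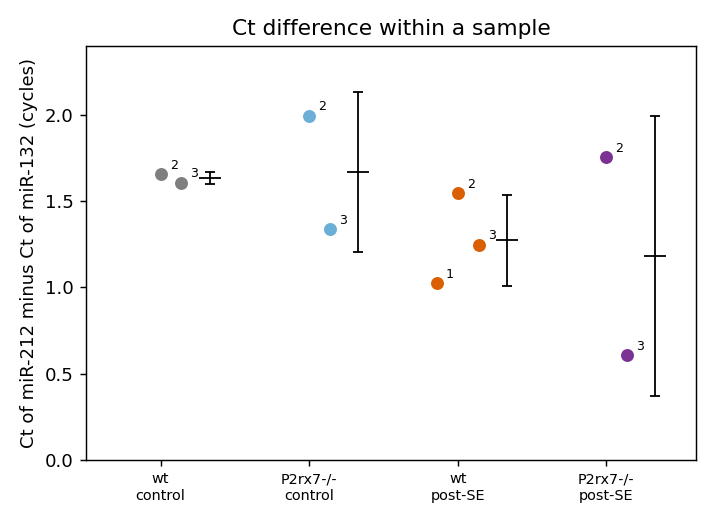
Ct of miR-212 minus Ct of miR-132 in the same sample (cycles, y axis) by group (x axis); points are the 9 samples with both values, with their replicate number, and the bars beside them give mean and SD. The wt post-SE samples, at 1.02 to 1.55 cycles, lie below the wt control samples, at 1.61 and 1.66 cycles, and the *P2rx7*-/- groups overlap.

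Over the 9 samples with both values, the levels of miR-132 and miR-212 had a Pearson r of 0.69 (two-sided exact permutation p = 0.0432) and a Spearman correlation of 0.62 (exact permutation p = 0.0857), the only relation between samples that was tested. Without *P2rx7*-/- control 2 and *P2rx7*-/- post-SE 3, the samples farthest from the median of miR-212, r was 0.82 over 7 samples. For the deviations from the group means r was 0.25. Both levels also carry the same normalizer of each sample.

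The 5 assays whose level followed that of miR-212 most closely over the 12 samples, among 334 other assays, were hsa-miR-93# (Pearson r = 0.84, Spearman correlation = 0.66), hsa-miR-186 (0.76 and 0.63), mmu-miR-412 (0.74 and 0.71), mmu-miR-541 (0.73 and 0.76) and mmu-miR-134 (0.72 and 0.61). They were picked by this r, so no p is given, and the median r over all assays was 0.05. Without *P2rx7*-/- post-SE 3 and wt post-SE 1, the samples farthest from the median of miR-212, r fell to between 0.39 for hsa-miR-186 and 0.65 for mmu-miR-412, while without wt control 1 it ran from 0.73 to 0.85. hsa-miR-93#, the passenger strand of miR-93, had its highest level, 3.53, in *P2rx7*-/- post-SE 3 and its next highest, 3.21, in wt post-SE 1, the same samples in which miR-212 was highest. mmu-miR-134, a dendritic miRNA that acts on Limk1, was highest in the same sample, at 2.05, and its averaged difference after SE was 0.45.

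A list of 16 further miRNAs reported as regulated by neuronal activity or needed for plasticity was measured by 17 assays, of which 11 had a Ct in all samples. In wt mice 4 of the 11 averaged an FC above 1.5 after SE and 1 below 0.6, and in *P2rx7*-/- mice 1 was above and 0 below, where 78 and 42 of all 335 assays were in wt and 60 and 24 in *P2rx7*-/- mice. The median averaged difference of the list was 0.06, against -0.05 over all 335 assays. By median Ct, hsa-miR-26a (11.5) was the most abundant of the 11 assays, followed by mmu-miR-137 (14.6). The FC of hsa-miR-26a in wt mice was 41.5, and 1.22 without wt control 1. A summed level weighs such abundant assays most and does not show that the 11 rose together. Without wt control 1 the median log2 difference of the 11 in wt mice was 0.04, against -0.002 over all 335 assays. The summed level of the 11 assays was 225.3, 201.7 and 210.8 for wt controls, against 265.2, 258.6 and 241.6 in wt mice after SE, higher in every post-SE sample by 0.26 on the log2 scale and by 0.28 without wt control 1. With the other normalizers this difference ran from -0.46 (snoRNA202) to 0.25 (median Ct), and the groups overlapped with 3 of the 4. In *P2rx7*-/- mice the sum differed by -0.48 with overlap, and by -0.13 without *P2rx7*-/- post-SE 1, whose sum of 102.4 was the lowest. Without *P2rx7*-/- control 2 it differed by -0.57 and without *P2rx7*-/- post-SE 2 by -0.71, both without overlap. With snoRNA202 and all samples it differed by -0.38 and the groups did not overlap. hsa-miR-219, which promotes oligodendrocyte maturation, was the only one of these 11 above 1.5 in both genotypes, with FCs of 1.88 in wt and 3.61 in *P2rx7*-/- mice, and 24 of 335 assays were. hsa-miR-191, listed in 11 samples, was above it too, at 2.54 and 1.57. Without wt control 1 the count in wt mice was 1 of 11, against 52 of 335. This was none of the 4 but hsa-miR-485-5p, the assay that had been below 0.6, which went from 0.452 to 2.90. The FCs then were 0.953 for hsa-miR-219 and 1.15 for hsa-miR-191. Above 1.5 in both genotypes were then 0 of the 11, against 15 of 335, so that these counts depend on the sample that stood apart.

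Markers of hippocampal cells were examined beside the members, since in whole tissue a change in the number of cells of a type and a change in RNA per cell cannot be told apart. Of 6 neuronal miRNAs, 3 had a Ct in all samples, with hsa-miR-127 the most abundant of these, hsa-miR-9 was empty in 8 of 12 samples at a median Ct of 10.5, and mmu-miR-124a and hsa-miR-138 were listed in 11 and 10 samples, so neuronal markers were detected in the tissue. The summed level of those 3, each as 2 to the power of −ΔCt, was 99.9, 106.6 and 100.1 for wt controls, against 145.9, 124.5 and 112.9 in wt mice after SE. It was thus higher in every wt post-SE sample than in any wt control sample, as miR-212 was, by 0.31 on the log2 scale and by 0.27 without wt control 1. With the other normalizers this difference ran from -0.41 (snoRNA202) to 0.30 (median Ct) and the groups overlapped. In *P2rx7*-/- mice the sum was 102.8, 114.7 and 91.1 for controls, against 129.7, 121.5 and 65.9 after SE, which overlapped, and *P2rx7*-/- post-SE 3, where miR-212 was highest, had the lowest sum. The log2 difference was -0.016 over all samples. Without *P2rx7*-/- post-SE 3 it was 0.30 and the groups did not overlap. It was -0.19 without *P2rx7*-/- post-SE 1 and -0.14 without *P2rx7*-/- post-SE 2, both with overlap. By the FC limit 1 of the 3 neuronal assays, mmu-miR-137, was up in wt mice at 3.02, and without wt control 1 it was 1.38. The FC of hsa-miR-127 was 1.17, and 1.27 without wt control 1. That of hsa-miR-128a was 1.04, and 0.942 without wt control 1, so the 3 assays did not all rise without that sample. The part of the neuronal share in the difference of miR-212 was not tested.

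Of 3 red blood cell miRNAs, 2 had a Ct in all samples, with hsa-miR-486 the more abundant. Their summed level was 24.7, 10.1 and 5.31 for wt controls, against 4.35, 5.13 and 4.92 in wt mice after SE, lower in every post-SE sample. For *P2rx7*-/- mice it was 6.57, 8.04 and 17.8 for controls, against 6.16, 5.24 and 9.40 after SE, which overlapped, although not without *P2rx7*-/- post-SE 3. The log2 difference there was -0.54, with -0.77 without *P2rx7*-/- post-SE 3 and -0.10 without *P2rx7*-/- control 3. On the log2 scale the sum differed by -1.20 in wt mice, and by -1.21 to -1.92 with the other normalizers, 2 of which let the groups overlap. It differed by -0.64 without wt control 1, whose sum was the highest, and then by -0.69 to -1.08 with the other normalizers. In wt mice 2 of the 2 assays averaged an FC below 0.6, as 42 of 335 assays did, and without wt control 1 it was 1 of the 2 and 22 of 335. In *P2rx7*-/- mice 0 of the 2 did, while the third assay, hsa-miR-144, listed in 8 samples, had FCs of 0.329 in wt and 0.332 in *P2rx7*-/- mice. The part of blood RNA in the levels of miR-132 and miR-212 was not tested.

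The remaining lists overlapped between control and post-SE groups in their summed levels or moved with single samples. Beside their counts, 23.3% of all 335 assays were above 1.5 in wt mice, 15.5% without wt control 1 and 17.9% in *P2rx7*-/- mice. Of 3 oligodendrocyte assays, with hsa-miR-219 the most abundant, 2 were above an FC of 1.5 in wt mice, 0 without wt control 1 and 2 in *P2rx7*-/- mice, and the sum reached 17.5 in *P2rx7*-/- post-SE 1 against 2.53 to 6.17 elsewhere. Without that sample the log2 difference of this sum in *P2rx7*-/- mice went from 0.79 to -0.05. Of 5 white blood cell and microglia assays with a Ct in all samples, 3 were above 1.5 in wt mice and 2 in *P2rx7*-/- mice, hsa-miR-150, the most abundant, and mmu-miR-155 in both, and the sums ran from 33.3 to 193.4 in wt control and from 120.5 to 254.4 in wt post-SE samples, a log2 difference of 0.90. When wt control 1 was left out, that difference was 0.14, hsa-miR-150 went from an FC of 34.9 to 1.62, and 3 assays were above 1.5 and 1, for hsa-miR-223 at 0.494, below 0.6. The other hsa-miR-223 assay was then at 0.794, between the limits. The single vessel wall assay with a Ct in all samples, hsa-miR-145, averaged an FC of 6.90 in wt mice, with a level of 245.1 in wt post-SE 1, and of 3.39 without wt control 1, while in *P2rx7*-/- mice it was 1.07. In wt mice the other vessel wall assays, listed in 10 or 11 samples, had FCs of 0.773 and 0.915 (hsa-miR-143, by separate assays) and 0.867 (hsa-miR-126). Without wt control 1 these were 0.761, 0.904 and 1.14. Of 7 choroid plexus and epithelial assays, with hsa-miR-34c the most abundant, 1 was above 1.5 and 1 below 0.6 in wt mice, with 0 and 1 without wt control 1, and 2 above and 0 below in *P2rx7*-/- mice.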

How the data were processed

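Per the file headers and the methods of the study, the Ct values were deposited without normalization, 1 per assay and sample, beside a table in which the authors give each value as a fold change, a ratio to wt control 1 after subtraction of a mean Ct per sample. The software that called Ct is not given in the sources used here. In the deposited fold changes an empty Ct had entered as 0, so those of miR-132 were not used and those of miR-212 served as an alternative only. From the Ct values, the mean over the 335 miRNA assays with a Ct below 28 in all 12 samples was subtracted (ΔCt), and FCs were 2 to the power of −ΔΔCt against the average ΔCt of the reference group. limma 3.58.1 in R 4.3.3 (lmFit and eBayes) was fitted to −ΔCt of all 12 samples with 1 coefficient per group, over 335 assays for miR-212 and over 478 assays with a Ct in at least 2 samples of each group for miR-132, with Benjamini-Hochberg adjustment over all assays of a fit. Samples with an empty Ct were dropped for miR-132. Exact permutation tests were two-sided, and those averaged over genotype exchanged labels within it. The fit was tested on simulated data, the outcome of which is not given here. Other values came from scipy 1.17.1, pandas 2.3.3 and numpy 2.4.6 under Python 3.11.15, and plots from matplotlib 3.10.9.

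The members and lists were chosen with earlier results of these data known. Named were the members, the 5 assays with the highest Pearson correlation with miR-212, control assays, and those of the activity list past an FC limit after SE in both genotypes. Other miRNAs named with the activity and cell type lists were chosen after their values were seen. A member assay has a single reading in each sample and so no technical error of its own, and p-values measure the spread between pools. Alternatives were other normalizers, a Ct limit of 26, other assay sets, sample weights, single samples left out, only the 2 groups compared, the replicate number as a block, and empty values of miR-132 set to a Ct of 10.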

Additional observations from a re-analysis of the deposited data

Results flagged for a closer look

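The deposited table holds 2 values per sample for ath-miR159a, a plant miRNA that mouse tissue does not make. A Ct was listed for 1 of the 2 in wt control 1, at 23.9, and for 1 of the 2 in *P2rx7*-/- post-SE 1, at 13.5, and those of the other samples were empty. Both samples are among the 3 in which miR-132 was empty. What gave these signals, and whether they bear on the miRNA assays of these samples, was not tested.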

How the results depend on the processing

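No alternative brought miR-132 or miR-212 past the adjusted threshold of 0.05 in limma. The effect of SE averaged over genotype kept its direction under all 23 alternatives for miR-212, from 0.32 (snoRNA202) to 0.77 (without *P2rx7*-/- control 3), with adjusted p from 0.294 to 0.983, and under all 22 for miR-132, from 0.004 (empty values set to a Ct of 10) to 0.37. With the samples left out in turn the range was 0.47 to 0.77 and 0.23 to 0.37. The Ct gap within a sample kept its direction under all 11 alternatives, from -0.71 to -0.14 cycles.

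With snoRNA202 as normalizer, miR-212 reversed to -0.030 in wt post-SE against wt control samples, to -0.090 in *P2rx7*-/- post-SE against wt control samples and to 0.70 for the interaction, and miR-132 to -0.035, -0.20 and 0.10, and to -0.26 between control groups. With snoRNA135, the difference between genotypes after SE became 0.049 for miR-212 and 0.24 for miR-132, and the interaction of miR-212 0.14. The median Ct turned the difference between genotypes after SE to 0.029 for miR-132, and the mean of all listed assays turned that between control groups to -0.080 for miR-132. Combining a snoRNA with leaving out wt control 1 was added after seeing the data. It gave miR-212 in wt mice 0.32 (snoRNA202) and 0.63 (snoRNA135), so its reversal in wt mice depends on that sample, while miR-132, empty in it, was again -0.035 and 0.27. It turned miR-212 to 0.15 between control groups and to 0.049 between genotypes after SE with snoRNA135, and to 0.35 for the interaction with snoRNA202. The reversals of miR-132 had the values given above. With empty values at a Ct of 10, miR-132 reversed to -0.11 in *P2rx7*-/- post-SE against *P2rx7*-/- control samples and to -0.012 against wt control samples. With samples left out in turn, the difference between control groups ran from -0.39 to 0.057 for miR-212 and from -0.032 to 0.23 for miR-132, and the interaction of miR-212 from -0.45 to 0.16. The causes of these reversals were not tested.

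Alternatives for the FC and for the counts of the lists were, except for the geometric mean, chosen after seeing the data. The average FC of miR-212 in wt mice was 0.988 with snoRNA202, 1.32 with snoRNA135 and 1.49 from the deposited fold changes set against the wt control average, and ran from 1.46 to 1.76 with samples left out. Without wt control 1 it was 1.26 with snoRNA202 and 1.55 with snoRNA135. It was 1.49 in *P2rx7*-/- mice as a geometric mean and ran from 1.18 to 1.92, and relative to wt control samples it was 1.64 with the median Ct and 1.69 with snoRNA135 without wt control 1, and ran from 1.08 to 1.68. The lowest average relative to wt control samples over all alternatives was 0.992.

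Whether the replicate numbers pair the samples was not settled. Over the 335 assays, deviations of same-numbered samples correlated above 0.1 in 4 of 18 pairs. Of 12 samples, 6 correlated best with their own number. The highest of these correlations, 0.28, 0.27 and 0.25, were all between samples numbered 3, while those with wt control 3 ran from -0.034 to 0.094. Whether samples numbered 3 shared a run was not tested. In the fit with the replicate block the averaged effect of SE was 0.63 for miR-212 (adjusted p = 0.854) and 0.28 for miR-132 (adjusted p = 0.866), and no call changed.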
